A study of Mus musculus with 19 samples.

Results

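Antioxidant enzymes and metallothioneins are described here through 10 genes, which were chosen by symbol from the gene-name columns of the 3 deposited expression tables: the superoxide dismutases *Sod1*, *Sod2* and *Sod3*, catalase (*Cat*), the glutathione peroxidases *Gpx1*, *Gpx3* and *Gpx4*, the peroxiredoxin *Prdx3*, and the metallothioneins *Mt1* and *Mt2*. They are 10 of the 55740 genes listed in at least 1 of the tables, each was found once in each table, and all 10 passed the filter on low values in both adipose tables. Expression was measured by RNA-Seq of poly(A) RNA in 19 libraries. A set of 7 libraries came from chow-fed C57BL/6J wild-type (WT) mice, 1 each from liver, white adipose tissue, brown adipose tissue, small intestine, brain, heart and tibialis anterior muscle. The other 12 came from inguinal white adipose tissue (iWAT) and brown adipose tissue (BAT) of male mice kept at 8 °C for 1 week, with 3 WT control and 3 MCK-Musclin libraries for each tissue. MCK-Musclin mice carry the full-length Musclin coding sequence, which encodes a peptide hormone secreted by muscle, behind a muscle creatine kinase promoter that is active in skeletal muscle. The transgene was bred onto C57BL/6J from several founder lines, and the line used is not given in the sources used here. The cold-exposed mice were 5 months old. The question put to these data was how the mRNA levels of the antioxidant genes differ among tissues and between the genotypes in cold-exposed fat.

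Respiration, oxidases and fatty acid breakdown in peroxisomes produce superoxide and hydrogen peroxide. Superoxide dismutases turn superoxide into hydrogen peroxide and oxygen: *Sod1* encodes the copper and zinc enzyme of the cytosol, *Sod2* the manganese enzyme of the mitochondrial matrix and *Sod3* the secreted enzyme. Catalase breaks hydrogen peroxide down in peroxisomes, *Prdx3* encodes a thioredoxin-dependent peroxidase of the mitochondrial matrix, and the glutathione peroxidases use glutathione, with *Gpx1* encoding the main cytosolic form, *Gpx3* the secreted plasma form and *Gpx4* the form that reduces lipid hydroperoxides in membranes. Metallothioneins are small cysteine-rich proteins that bind zinc and copper, and their genes are known to respond to metals, glucocorticoids and cold. Brown and beige fat burn fuel in mitochondria to make heat, and are therefore tissues in which the mitochondrial members are usually of interest.

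The 3 glutathione peroxidases are selenoproteins, in which an in-frame TGA codon is read as selenocysteine instead of stop. The coding sequences of GENCODE (GRCm38) hold 1 such codon before the stop in each of these 3 genes and none in the other 7 members. The windows of 27 coding bases around it are shown because they mark what sets these enzymes apart from *Prdx3* and catalase, with the selenocysteine codon in capitals, at codon 47 of *Gpx1*, codon 73 of *Gpx3* and codon 129 of *Gpx4*.
Gpx1: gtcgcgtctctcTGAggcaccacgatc
Gpx3: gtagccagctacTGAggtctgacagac
Gpx4: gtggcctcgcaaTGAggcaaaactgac

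*Mt1* (chromosome 8, 94179082 to 94180327) and *Mt2* (chromosome 8, 94172664 to 94173568) lie head to tail on the plus strand of GRCm38, with 5513 bases between them. Their coding sequences have 186 bases each and are identical at 148 of them (79.6%). They are printed whole because the members of this pair differ in level and in pattern below although they encode closely related products, with every cysteine codon in capitals.
Mt1: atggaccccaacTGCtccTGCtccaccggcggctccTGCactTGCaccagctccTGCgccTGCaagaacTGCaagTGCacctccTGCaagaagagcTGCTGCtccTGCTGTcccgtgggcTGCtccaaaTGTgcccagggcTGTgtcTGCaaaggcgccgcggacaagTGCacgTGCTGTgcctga
Mt2: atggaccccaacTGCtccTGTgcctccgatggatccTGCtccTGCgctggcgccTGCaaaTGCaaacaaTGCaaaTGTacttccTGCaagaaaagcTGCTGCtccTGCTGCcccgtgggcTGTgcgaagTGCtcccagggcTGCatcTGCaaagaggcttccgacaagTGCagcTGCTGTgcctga

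Each of these sequences holds 20 cysteine codons among its 61 codons (32.8%), all 20 at the same positions in both genes. In the other 8 members the share of cysteine codons was between 0.949% in *Cat* and 4.35% in *Gpx4*, in the transcripts used. The 250 bases before the RefSeq start of each metallothionein gene (GRCm38) are also shown, with the core of the metal response element in capitals, because the levels of the pair differed between tissues. The core was searched on both strands as TGCACNC or TGCGCNC.
Mt1, chr8:94178839-94179088, plus strand: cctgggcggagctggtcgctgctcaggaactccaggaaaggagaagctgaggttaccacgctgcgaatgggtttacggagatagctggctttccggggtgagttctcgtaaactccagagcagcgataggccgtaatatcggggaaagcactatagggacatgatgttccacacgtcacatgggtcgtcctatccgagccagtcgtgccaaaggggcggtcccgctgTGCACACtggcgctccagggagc
Mt2, chr8:94172368-94172617, plus strand: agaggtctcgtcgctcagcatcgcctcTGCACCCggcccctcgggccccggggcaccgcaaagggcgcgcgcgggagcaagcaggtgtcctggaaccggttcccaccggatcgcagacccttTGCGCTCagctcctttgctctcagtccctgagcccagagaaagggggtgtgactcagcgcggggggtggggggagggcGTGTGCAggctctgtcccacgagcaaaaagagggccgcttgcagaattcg

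The *Mt1* window holds 1 core, from 23 to 17 bases before the start, and the *Mt2* window holds 3, the nearest from 50 to 44 bases before the start and on the minus strand. At least 1 core stands in 21.4% of the 32851 RefSeq promoters of this length, and at least 3 stand in 1.26% of them. None of the 7 other members with a promoter in the RefSeq table holds the core in its windows. The core of the antioxidant response element (TGACNNNGC, both strands), which stands in 10.2% of these promoters, was found once each in the windows of *Mt2* and *Sod1* and in none of the others. A match of letters is a description of the window and not a measured binding site. Bases outside the windows were not searched, and *Mt1* has 3 transcripts in GENCODE. The counts therefore hold for these windows and do not compare the metal response elements of the genes.

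FPKM, the fragments assigned to a gene scaled to its exon length and to the mapped fragments of the library, was the deposited unit, so levels can be set side by side between genes. How many reads each value rests on is unknown. The FPKM of a library summed to between 393682 and 711437 over the 7 tissues, between 676362 and 720852 in BAT and between 364710 and 384104 in iWAT. These sums run over unlike gene sets, with 55573 genes listed for the 7 tissues, 55487 for BAT and only 13756 for iWAT. The 10 most abundant genes took 48.4% to 51.3% of the sum in BAT and 11.9% to 13.0% in iWAT, which affects how a level compares between the tables. From steps between low values, the relative depth was between 0.918 and 1.05 of that of heart in the 7 tissues and between 0.890 and 1.11 of that of WT library 1 in BAT, and it is unknown for iWAT. All listed markers of liver, heart, brain, small intestine and skeletal muscle were highest in their own tissue, as were 9 of 10 general adipocyte markers in white adipose tissue, while 4 of 8 brown and beige fat markers were highest in brown adipose tissue. *Ucp1*, the thermogenic uncoupling protein, had 467 FPKM in brown adipose tissue and 0 in white adipose tissue, and the brown adipose library also had 638 FPKM of *Cfd* and 73.2 of *Lep*, which are typical of white fat. The transgene check gave *Ostn*, the Musclin gene, an FPKM of 0 in all 3 WT libraries of BAT and of 37.9, 31.6 and 30.3 in the MCK-Musclin libraries, whereas in iWAT it had 0, 0 and 0.225 in WT and 0, 5.17 and 4.21 in MCK-Musclin libraries 1 to 3.

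Across the 7 tissues, 5 of the 10 genes had their highest FPKM in brown adipose tissue (*Sod2*, *Gpx3*, *Gpx4*, *Prdx3* and *Mt1*), 3 in liver (*Sod1*, *Cat* and *Gpx1*), 1 in white adipose tissue (*Sod3*) and 1 in brain (*Mt2*). With 1 library per tissue there is no spread to set these differences against, and no test was made. In bulk tissue, fewer cells of a type and less RNA per cell cannot be told apart. The number of members highest in brown adipose tissue was 3 when the FPKM were rescaled to TPM, where *Gpx4* was highest in white adipose tissue and *Mt1* in brain, and 4 with median-ratio scaling, where *Sod2* was highest in heart. The liver members were the same 3 under each of these scalings.

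**Figure D1:**
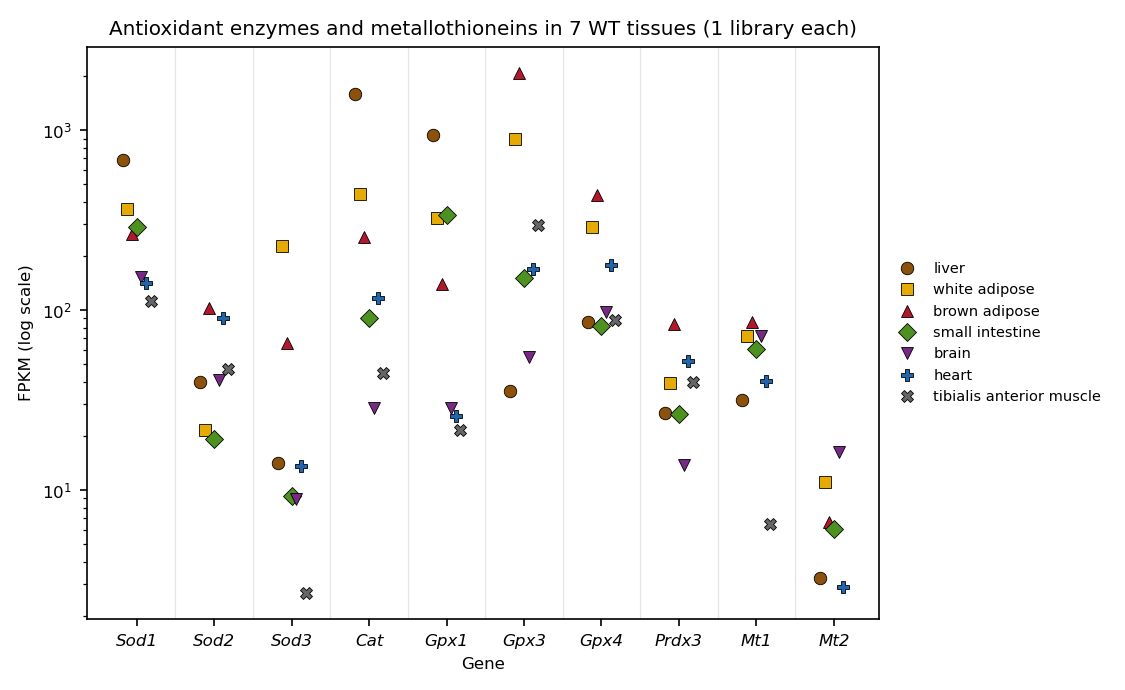
FPKM (log scale) of the 10 genes in the 7 WT tissues, 1 point for each library. Liver stands at the top for *Sod1*, *Cat* and *Gpx1*, brown adipose tissue for *Gpx3* (2081 FPKM), and *Mt2* in tibialis anterior muscle is not drawn because it is listed at 0.

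The 3 superoxide dismutases had different tissue orders. *Sod1* had 682 FPKM in liver, 366 in white adipose tissue, 290 in small intestine, 265 in brown adipose tissue, 153 in brain, 142 in heart and 113 in tibialis anterior muscle. *Sod2* had 102 in brown adipose tissue, 90.5 in heart, 47.3 in tibialis anterior muscle, 41.1 in brain, 39.7 in liver, 21.5 in white adipose tissue and 19.3 in small intestine. The mitochondrial enzyme was thus high in brown fat and heart, and the cytosolic enzyme was high in liver. *Sod3* had 229 FPKM in white adipose tissue, 65.7 in brown adipose tissue, 14.1 in liver, 13.7 in heart, 9.27 in small intestine, 8.97 in brain and 2.68 in tibialis anterior muscle. White adipose tissue therefore held 66.7% of the *Sod3* FPKM summed over the 7 tissues and 3.48 times the level of the next tissue. The cold-exposed WT mice did not show such a gap between white and brown fat, with *Sod3* means of 98.9 FPKM in iWAT and 82.4 in BAT. *Sod1* made up most of the dismutase FPKM in every tissue, from 57.6% in heart to 92.7% in liver, *Sod2* from 3.49% in white adipose tissue to 36.8% in heart, and *Sod3* from 1.64% in muscle to 37.1% in white adipose tissue. In cold iWAT the *Sod3* share was smaller, from 8.66% to 11.1% in WT and from 10.1% to 11.9% in MCK-Musclin libraries.

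Among the enzymes that remove peroxide, catalase had its highest level in liver, the tissue rich in peroxisomes. *Cat* had 1591 FPKM in liver, 441 in white adipose tissue, 257 in brown adipose tissue, 118 in heart, 90.6 in small intestine, 44.7 in tibialis anterior muscle and 28.7 in brain. *Gpx1* had 944 FPKM in liver, 337 in small intestine, 327 in white adipose tissue, 139 in brown adipose tissue, 28.5 in brain, 25.7 in heart and 21.6 in tibialis anterior muscle. *Cat* was 3.61 times and *Gpx1* 2.80 times as high in liver as in the next tissue. *Gpx3* took the opposite end, with 2081 FPKM in brown adipose tissue, 899 in white adipose tissue, 296 in tibialis anterior muscle, 168 in heart, 150 in small intestine, 54.9 in brain and 35.6 in liver. The brown adipose value was the highest FPKM of any member in any of the 19 libraries. The cold BAT libraries had less *Gpx3*, between 193 and 966 FPKM. *Gpx4* varied less, with 438 FPKM in brown adipose tissue, 290 in white adipose tissue, 178 in heart, 98.0 in brain, 88.4 in tibialis anterior muscle, 85.6 in liver and 82.1 in small intestine. *Prdx3* had 84.2 FPKM in brown adipose tissue, 52.1 in heart, 39.7 in tibialis anterior muscle, 39.3 in white adipose tissue, 26.8 in liver, 26.5 in small intestine and 13.7 in brain. The first 3 tissues in the order of *Prdx3* were those of *Sod2*, the other enzyme of the mitochondrial matrix. This held with median-ratio scaling but not when the FPKM were rescaled to TPM. In TPM, brown adipose tissue, white adipose tissue and heart came first for *Prdx3*, whereas *Sod2* had brown adipose tissue, heart and brain.

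The make-up of the glutathione peroxidase family thus turned over between tissues. *Gpx1* made up 88.6% of the summed FPKM of the 3 genes in liver and 59.2% in small intestine. *Gpx3* made up 78.3% in brown adipose tissue, 72.9% in tibialis anterior muscle and 59.3% in white adipose tissue. In cold BAT its share was lower and uneven, from 35.6% to 64.7% in WT and from 33.3% to 72.9% in MCK-Musclin libraries. *Gpx4* was the largest part there in library 2 of each genotype, with 45.8% in WT and 48.0% in MCK-Musclin. Among the tissues with a single library, *Gpx4* was the largest part in brain, with 54.0%, and in heart, with 47.8% beside 45.3% for *Gpx3*. These shares are ratios within a library and do not depend on how libraries are scaled.

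**Figure D2:**
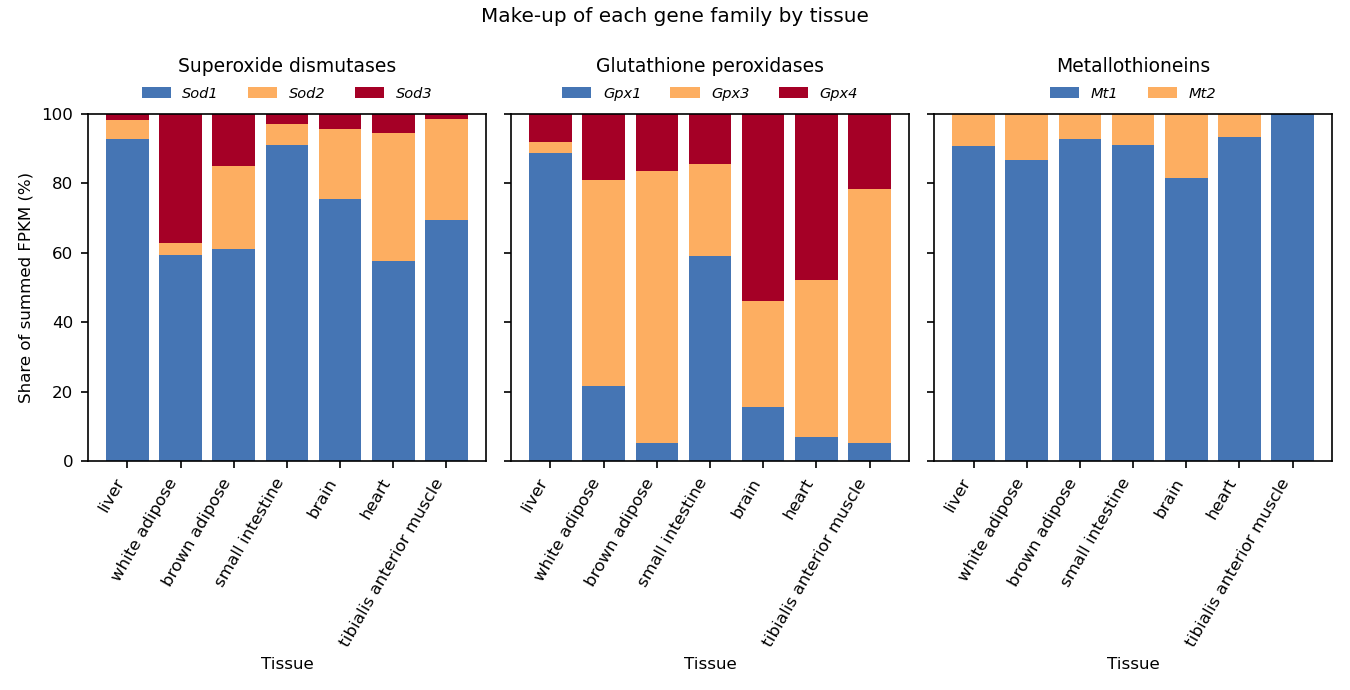
Share (%) of the summed FPKM of each family taken by each of its genes in the 7 WT tissues, 1 library each. *Gpx1* fills most of the glutathione peroxidase bar in liver (88.6%) and *Gpx3* in brown adipose tissue (78.3%), while *Mt1* fills 81.4% or more of the metallothionein bar in every tissue.

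Of the metallothioneins, *Mt1* had 85.5 FPKM in brown adipose tissue, 72.1 in white adipose tissue, 71.8 in brain, 60.9 in small intestine, 40.2 in heart, 31.6 in liver and 6.45 in tibialis anterior muscle. *Mt2* had 16.4 in brain, 11.1 in white adipose tissue, 6.62 in brown adipose tissue, 6.06 in small intestine, 3.27 in liver and 2.91 in heart, and it is listed at 0 in tibialis anterior muscle. *Mt1* was higher than *Mt2* in each of the 19 libraries. The ratio of *Mt1* to *Mt2* was lowest in brain, at 4.39, and highest in heart, at 13.8, among the 6 tissues where *Mt2* was above 0. The exons of *Mt2* overlap 432 exon bases of the antisense gene *Gm45774*, and the alignment did not use strand. *Gm45774* itself had no more than 0.233 FPKM in any library in which it is listed. That value rests on the same unstranded reads, so antisense reads counted for *Mt2* cannot be told apart.

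Over the 19 libraries the members formed pairs of like pattern. *Mt1* and *Mt2* had a Pearson correlation of 0.93 on log2(FPKM + 1), *Sod1* and *Cat* of 0.88, and *Sod2* and *Prdx3* of 0.83. The 19 points mix different tissues and share their library scaling, so these are descriptions with no p-value. Among 12258 other genes, those most like *Prdx3* were *Uqcr11* (0.97), *Acadvl* (0.96) and *Atp5b* (0.96), which encode parts of the respiratory chain, an enzyme of fatty acid oxidation and a subunit of ATP synthase. The genes most like *Cat* were *C3* (0.98), the peroxisomal protease gene *Lonp2* (0.95) and *Hacl1* (0.93), which encodes a peroxisomal lyase. For *Sod3* they were *Anxa5* (0.98), *Sik2* (0.97) and *Adrb3* (0.96), the adrenergic receptor of adipocytes. The nearest gene was *Dbi* for *Sod1* (0.96), *Grsf1* for *Sod2* (0.95), *Cyp4v3* for *Gpx1* (0.97), *Tinagl1* for *Gpx3* (0.84), *Pkd2l2* for *Gpx4* (0.94), *Swsap1* for *Mt1* (0.95) and *Ap1m1* for *Mt2* (0.93). *Gpx3* was the member with the least like nearest gene.

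In iWAT of cold-exposed mice, none of the 10 genes differed between MCK-Musclin and WT mice at an adjusted p under 0.05, by limma on log2(FPKM + 1) with Benjamini-Hochberg adjustment over the 12197 genes tested. No gene of the table did (0%), while 2012 genes (16.5%) had an unadjusted p under 0.05, and the smallest adjusted p of the table was 0.0912. This count rested on the libraries and the scaling: 86 genes (0.704%) passed without WT library 1 and 973 (7.98%) after each library was centred on the general adipocyte markers, with 0 members among them in either case. At an unadjusted p under 0.05, 1 member was lower (*Sod2*) and 0 were higher, where 3.44% of all genes tested were lower and 13.1% higher. A lower value of any size was found for 7 of the 10 members and for 38.7% of all genes, and the median log2 change was -0.08 over the members and 0.06 over all genes tested. No member separated the 3 MCK-Musclin from the 3 WT libraries, where 5.44% of all genes did with lower and 17.9% with higher values in MCK-Musclin mice.

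*Sod2* in iWAT had 31.3, 24.7 and 31.6 FPKM in the WT libraries and 26.3, 19.1 and 21.2 in the MCK-Musclin libraries, each in the order of replicates 1 to 3, as for all values below. MCK-Musclin library 1 stood above WT library 2, so the groups overlapped. The log2 change was -0.38 ± 0.15 (SE, n = 3 per group), with a 95% interval from -0.74 to -0.03, an unadjusted p of 0.0363 and a limma adjusted p of 0.269. Leaving out any 1 of 4 libraries (WT 1, WT 3, MCK-Musclin 2 or MCK-Musclin 3) took the unadjusted p of *Sod2* to between 0.0916 and 0.116 by limma, with log2 changes from -0.36 to -0.29. Relative to the general adipocyte markers the *Sod2* log2 change was -0.18. The brown and beige fat markers differed in the same direction between these groups. At an unadjusted p under 0.05, where 3.44% of all genes tested were lower, 6 of the 8 markers were. Their summed FPKM was between 571 and 1070 in WT and between 115 and 643 in MCK-Musclin libraries, and none of the 8 was at 0. *Ucp1* had 130, 248 and 346 FPKM in WT and 173, 31.6 and 2.91 in MCK-Musclin libraries. The part of these markers in the *Sod2* difference was not tested. *Prdx3*, the other matrix enzyme, had 39.1, 40.9 and 31.9 FPKM in WT and 34.3, 27.6 and 33.0 in MCK-Musclin libraries, a log2 change of -0.23 ± 0.13 (SE; limma adjusted p = 0.422).

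The other dismutases were close in the 2 groups. *Sod1* in iWAT had 912, 899 and 825 FPKM in WT and 826, 821 and 895 in MCK-Musclin libraries, and its 95% interval for the log2 change ran from -0.30 to 0.20. *Sod3* had 89.4, 100.04 and 107 in WT and 95.6, 114 and 103 in MCK-Musclin libraries, with an interval from -0.19 to 0.34. Both groups spanned nearly the same range for each of these genes. *Gpx4* in iWAT had 192, 168 and 198 in WT and 180, 189 and 148 in MCK-Musclin libraries, with an interval from -0.41 to 0.18. For these 3 genes a change of 1 on the log2 scale, which is a doubling or a halving, lay outside the interval in both directions.

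*Cat*, *Gpx1* and *Gpx3* varied more among iWAT libraries than between the groups. *Cat* had 582, 664 and 600 FPKM in WT and 568, 452 and 710 in MCK-Musclin libraries, so the highest and the lowest library were both MCK-Musclin. *Gpx1* likewise had 183, 242 and 164 in WT and 174, 293 and 132 in MCK-Musclin libraries, 2.22 times from the lowest to the highest. *Gpx3* had 294, 287 and 470 FPKM in WT and 435, 374 and 506 in MCK-Musclin libraries, a log2 change of 0.35 ± 0.21 (SE; limma adjusted p = 0.450), and WT library 3 stood among the MCK-Musclin libraries. Without that library the *Gpx3* log2 change in iWAT was 0.58, at an unadjusted p of 0.00731 and a limma adjusted p of 0.300. WT library 3 also stood apart in skeletal muscle markers. The 8 markers summed to 7.89, 452 and 2409 FPKM in the WT libraries of iWAT and to 5.98, 87.6 and 96.8 in the MCK-Musclin libraries. All 8 had lower values in MCK-Musclin mice, as did 38.7% of all genes tested. The markers had a median log2 change of -2.25, and none was at an unadjusted p under 0.05. Their part in the iWAT differences was not tested.

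*Mt1* in iWAT had 67.9, 65.1 and 94.8 FPKM in WT and 67.2, 66.2 and 76.4 in MCK-Musclin libraries, with a log2 change of -0.10 ± 0.16 (SE; limma adjusted p = 0.787). *Mt2* had 9.19, 13.9 and 11.4 in WT and 17.2, 11.9 and 16.3 in MCK-Musclin libraries, with a log2 change of 0.37 ± 0.18 (SE; limma adjusted p = 0.360). The values of both genes overlapped between the groups. The ratio of *Mt1* to *Mt2* was 7.39, 4.67 and 8.33 in WT and 3.90, 5.56 and 4.68 in MCK-Musclin libraries, with the lowest WT library between the 2 lower MCK-Musclin libraries.

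**Figure D3:**
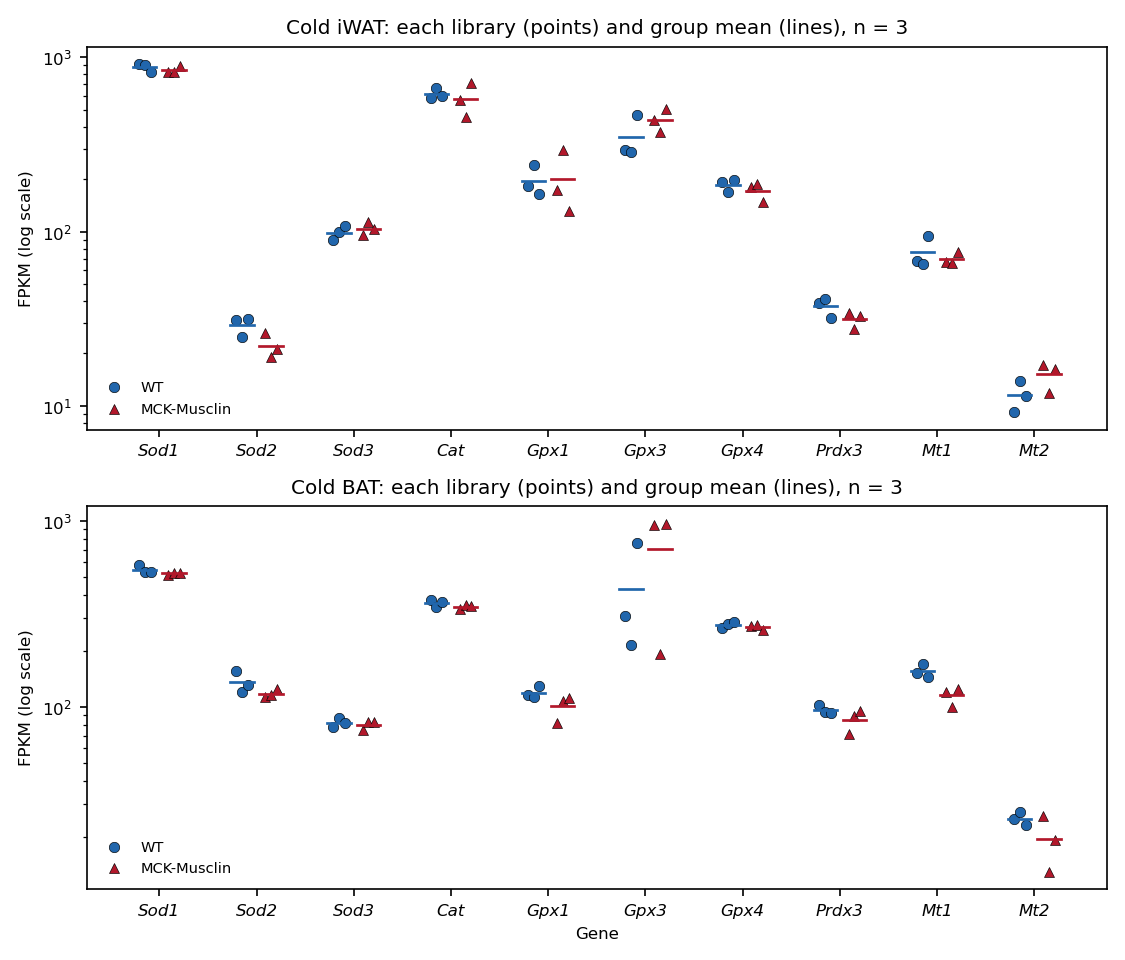
FPKM (log scale) of the 10 genes in each library of cold iWAT (top) and cold BAT (bottom), WT as circles and MCK-Musclin as triangles, with the group means as lines (n = 3 per group). The groups overlap for every gene in iWAT, and in BAT *Gpx3* spans 193 to 966 FPKM while *Mt1* is the gene with the clearest gap between the groups.

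In BAT of the cold-exposed mice, likewise, none of the 10 genes passed an adjusted p of 0.05 among the 10893 genes tested, where 1 gene did (0.00918%), *Ostn* itself. At an unadjusted p under 0.05, 1 member was lower (*Mt1*) and 0 were higher, against 2.71% of all genes lower and 2.18% higher (4.89% in all). For 3 members, *Mt1*, *Gpx1* and *Sod1*, all MCK-Musclin libraries stood below all WT libraries, which held for 5.63% of all genes tested, and for 0 members did they stand above, which held for 4.38% of all genes. Values were lower in MCK-Musclin mice for 9 of the 10 members and for 52.3% of all genes, with a median log2 change of -0.12 over the members and -0.01 over all genes.

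*Mt1* had 153, 171 and 144 FPKM in the WT libraries of BAT and 121, 100.4 and 125 in the MCK-Musclin libraries. The lowest WT library stood above the highest MCK-Musclin library. The log2 change was -0.43 ± 0.11 (SE, n = 3 per group), with a 95% interval from -0.70 to -0.17, an unadjusted p of 0.00549 and a limma adjusted p of 0.929. Relative to the general adipocyte markers it was -0.31, with an unadjusted p of 0.0965 by limma. *Mt2* had 24.9, 27.3 and 23.1 FPKM in WT and 26.1, 13.0 and 19.2 in MCK-Musclin libraries, a log2 change of -0.40 ± 0.22 (SE; limma adjusted p = 0.968), and MCK-Musclin library 1 stood within the WT range. Without MCK-Musclin library 2 the *Mt2* log2 change was -0.16, and without MCK-Musclin library 1 it was -0.63. The ratio of *Mt1* to *Mt2* was 6.13, 6.25 and 6.24 in the WT libraries and 4.63, 7.71 and 6.52 in the MCK-Musclin libraries, so the WT libraries were nearly alike and the MCK-Musclin libraries stood on both sides of them.

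Other signals moved with genotype in the same BAT libraries. Of 8 glucocorticoid-responsive genes, 7 were lower in MCK-Musclin mice, where 52.3% of all genes tested were. At an unadjusted p under 0.05, 3 were lower (*Klf9*, *Ddit4* and *Sgk1*), where 2.71% of all genes were. The list had a median log2 change of -0.29 and summed to between 65.4 and 101 FPKM in WT and between 50.4 and 65.1 in MCK-Musclin libraries. *Klf9* had 30.1, 36.2 and 36.5 FPKM in WT and 6.17, 31.5 and 6.39 in MCK-Musclin libraries, while *Mt1* was lowest in MCK-Musclin library 2. Skeletal muscle markers were higher, with 7 of 8 at an unadjusted p under 0.05, where 2.18% of all genes tested were. The 8 markers summed to between 303 and 449 FPKM in WT and between 492 and 1021 in MCK-Musclin libraries, with none of the 8 at 0. None of these genes passed an adjusted p of 0.05. The part of either in the *Mt1* difference was not tested. In iWAT, all 8 glucocorticoid-responsive genes were lower in MCK-Musclin mice, where 38.7% of all genes tested were. At an unadjusted p under 0.05, 0 of them were lower there. Their median log2 change in iWAT was -0.18, beside log2 changes of -0.10 for *Mt1* and 0.37 for *Mt2*.

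The dismutases in BAT were close between the groups. *Sod1* had 577, 529 and 529 FPKM in WT and 513, 528 and 525 in MCK-Musclin libraries. The groups did not overlap, but the nearest libraries stood about 1 FPKM apart and the log2 change was -0.06 ± 0.07 (SE; limma adjusted p = 0.972), with a 95% interval from -0.23 to 0.11. *Sod2* had 157, 120 and 132 in WT and 113, 116 and 124 in MCK-Musclin libraries, with a log2 change of -0.20 ± 0.11 (SE; limma adjusted p = 0.968). *Sod3* had 78.3, 86.8 and 82.3 in WT and 75.5, 82.6 and 83.3 in MCK-Musclin libraries, and its interval ran from -0.23 to 0.16.

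The peroxide-removing enzymes in BAT were likewise near to each other in both groups, apart from *Gpx3*. *Cat* had 375, 344 and 366 FPKM in WT and 335, 353 and 350 in MCK-Musclin libraries, with an interval from -0.23 to 0.11. *Prdx3* had 102, 93.9 and 92.6 in WT and 71.4, 89.6 and 95.5 in MCK-Musclin libraries, and *Gpx1* had 117, 113 and 129 in WT and 82.3, 108 and 112 in MCK-Musclin libraries. MCK-Musclin library 1 was the lowest for both of these genes. The *Gpx1* log2 change in BAT was -0.26 ± 0.13 (SE; limma adjusted p = 0.968) and -0.12 without that library, and the *Prdx3* log2 change was -0.18 ± 0.12 (SE; limma adjusted p = 0.968) and -0.05 without it. *Gpx4* had 266, 278 and 287 in WT and 272, 277 and 259 in MCK-Musclin libraries, the smallest spread of any member in BAT, at 1.11 times from the lowest to the highest library.

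*Gpx3* was the least even member in BAT, with 308, 216 and 764 FPKM in WT and 951, 193 and 966 in MCK-Musclin libraries, 5.02 times from the lowest to the highest library. WT library 3 and MCK-Musclin libraries 1 and 3 were high and the other 3 libraries low, so each group held both kinds. The log2 change of 0.60 ± 0.69 (SE; limma adjusted p = 0.970) had a 95% interval from -1.02 to 2.21, and leaving out MCK-Musclin library 2 gave 1.37 at an unadjusted p of 0.0265 by limma, whereas leaving out library 3 of that group gave 0.21. *Cfd*, an adipocyte-secreted complement protease, had 117, 71.7 and 154 FPKM in WT and 142, 74.8 and 137 in MCK-Musclin libraries, and *Retn*, the adipokine resistin, had 29.7, 17.0 and 32.0 in WT and 28.7, 18.5 and 28.4. Both were lowest in WT library 2 and MCK-Musclin library 2, the libraries with the lowest *Gpx3*, but were not low in WT library 1, where *Gpx3* was. These genes were picked from the 10 general adipocyte markers after their values were seen, and none of the other 8 had its lowest values over the 6 libraries in that pair. *Fabp4* was lowest in library 2 of each genotype, with 5522 FPKM in WT and 5289 in MCK-Musclin, but MCK-Musclin library 1 stood between them at 5503. *Plin1* and *Lipe*, which coat and break down lipid droplets, were highest of the 6 libraries in MCK-Musclin library 2, with 319.8 and 316 FPKM, and *Adipoq*, the adiponectin gene, was lowest in WT library 1, with 283. *Lep* was not higher in the libraries with high *Gpx3*, with 6.24, 2.28 and 6.44 in WT and 2.42, 5.74 and 1.48 in MCK-Musclin libraries. The general adipocyte list summed to between 8233 and 9026 FPKM in WT and between 7740 and 8529 in MCK-Musclin libraries, and its part in the spread of *Gpx3* was not tested.

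**Figure D4:**
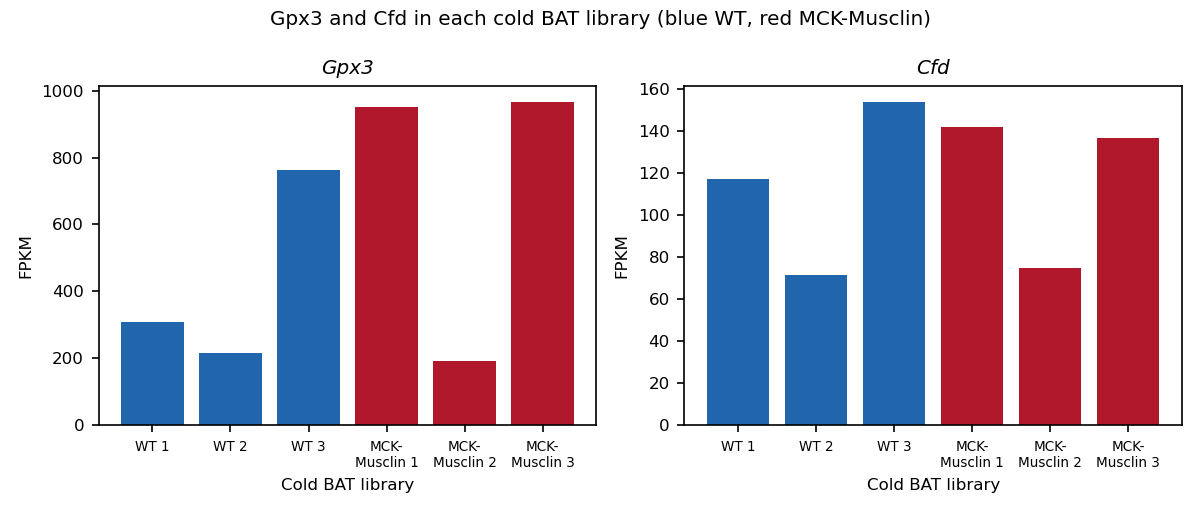
FPKM of *Gpx3* (left) and *Cfd* (right) in each of the 6 cold BAT libraries, 1 bar for each library, WT in blue and MCK-Musclin in red. *Gpx3* is high in WT library 3 (764) and MCK-Musclin libraries 1 (951) and 3 (966), and *Cfd* is lowest in WT library 2 (71.7) and MCK-Musclin library 2 (74.8). In WT library 1 *Gpx3* is low (308) and *Cfd* is not (117). *Cfd* was picked from the 10 general adipocyte markers after their values were seen, and apart from *Retn* the others did not have their lowest values in that pair.

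*Gpx4* reads can be shared with a near-identical copy. The processed pseudogene *Gpx4-ps2* on chromosome 10 (45875291 to 45876086, GRCm38) matches the *Gpx4* transcript over 733 bases with 99.7% identity. It had 75.1 to 110 FPKM in the BAT libraries and no more than 2.25 in the 7 tissues, including 1.81 in brown adipose tissue. Why the tables differ in this was not tested. With both summed, the *Gpx4* log2 change in BAT was -0.06 in place of -0.04, an alternative chosen after the data were seen. *Gpx4* levels are uncertain when set across tables, and the iWAT table has no line for *Gpx4-ps2*. The copy of *Sod1*, *Gm8566*, is 97.8% identical over 465 bases and had 2.32 to 3.89 FPKM in BAT.

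**Figure D5:**
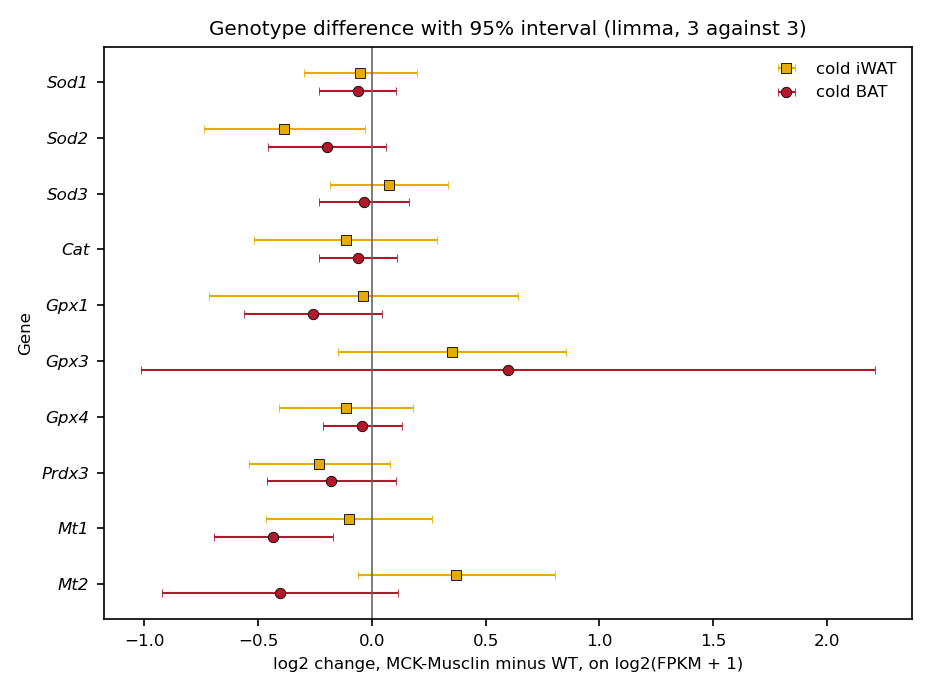
Log2 change of each gene (MCK-Musclin minus WT, on log2(FPKM + 1)) in cold iWAT (squares) and cold BAT (circles), with 95% intervals from limma (n = 3 per group). The intervals leave out 0 for *Sod2* in iWAT and *Mt1* in BAT, before adjustment over all genes, and *Gpx3* in BAT has the widest interval (-1.02 to 2.21).

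The genotype difference was compared between the tissues in a joint fit of the 12 adipose libraries over 9757 genes. The fit treated the 12 libraries as independent, with a common variance for each gene over both tissues. The labels do not say whether both tissues came from the same mice, so its errors and p-values rest on that assumption. No member and no other gene passed an adjusted p of 0.05 (0%). At an unadjusted p under 0.05, 1 member was called, *Mt2*, beside 10.1% of all genes tested. For *Mt2* the change in iWAT minus that in BAT was 0.77 ± 0.31 on the log2 scale (SE; unadjusted p = 0.0308, limma adjusted p = 0.465), with a 95% interval from 0.08 to 1.46. Leaving out 1 of 5 libraries (in iWAT the first WT library and MCK-Musclin replicates 1 and 3, in BAT replicate 2 of either genotype) took the unadjusted p of *Mt2* to between 0.064 and 0.0763 by limma, with values from 0.53 to 0.72. *Mt1* gave 0.33 ± 0.20 (SE; limma adjusted p = 0.605), and for *Gpx3* the interval ran from -2.04 to 1.55. For *Sod2*, lower in MCK-Musclin mice at an unadjusted p under 0.05 in iWAT but not in BAT, the difference between the tissues was -0.19, with an interval from -0.62 to 0.24.

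The levels of the WT mice in cold BAT and cold iWAT are set side by side without a test, because the tables were made separately and the 10 most abundant genes take a much larger part of the BAT libraries. *Sod2* was 136 ± 18.7 FPKM in BAT and 29.2 ± 3.89 in iWAT (SD, n = 3 each), and *Prdx3* was 96.2 ± 5.12 and 37.3 ± 4.72. *Mt1* was 156 ± 13.6 in BAT and 75.9 ± 16.4 in iWAT, and *Mt2* 25.1 ± 2.13 and 11.5 ± 2.38. *Sod1* was 545 ± 27.5 in BAT and 878 ± 46.7 in iWAT, *Cat* 362 ± 16.1 and 615 ± 42.6, and *Gpx1* 120 ± 8.33 and 196 ± 40.7. The mitochondrial enzymes and the metallothioneins thus had the higher FPKM in BAT, and the cytosolic and peroxisomal enzymes in iWAT. Fewer genes are listed for iWAT (13756) than for BAT (55487). Over these genes the FPKM of the WT libraries summed to between 709981 and 720317 in BAT and between 364710 and 368500 in iWAT. Levels were not rescaled for this, and how much of each difference follows from it was not tested. The order of the metallothioneins and of *Gpx4* between the tissues is therefore uncertain. *Sod3*, with 82.4 ± 4.23 in BAT and 98.9 ± 9.004 in iWAT, and *Gpx3*, with 429 ± 293 and 350 ± 104, had the nearest levels on the FPKM scale. *Gpx4* had 277 ± 10.3 FPKM in BAT and 186 ± 15.6 in iWAT. Within the dismutases, *Sod2* took 16.3% to 19.3% of the FPKM in the WT libraries of BAT and 2.41% to 3.27% in those of iWAT, a ratio that does not depend on the scaling of libraries.

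The other genes of these pathways were taken as 8 lists: other peroxidases, thioredoxins and glutaredoxins, glutathione synthesis and recycling, NADPH supply, NRF2 regulators and targets, metal and metallothionein control, selenoprotein synthesis, and sources of superoxide and peroxide. No gene of these lists passed an adjusted p of 0.05 in either tissue. At an unadjusted p under 0.05, the shares of all genes to read the counts against were 3.44% lower and 13.1% higher in iWAT, and 2.71% lower and 2.18% higher in BAT. In iWAT, 3 of 11 genes around NRF2, the transcription factor of the antioxidant response, were lower at an unadjusted p under 0.05 and 0 were higher. *Nfe2l2*, which encodes NRF2, had 45.9, 40.1 and 44.2 FPKM in WT and 36.4, 36.8 and 33.6 in MCK-Musclin libraries (log2 change -0.28 ± 0.09 SE, limma adjusted p = 0.220). *Keap1*, its inhibitor, had 26.0, 25.2 and 24.6 in WT and 18.6, 19.3 and 19.8 in MCK-Musclin libraries (log2 change -0.38 ± 0.08 SE, limma adjusted p = 0.148). *Nqo1*, a target of NRF2, had 3.61, 3.77 and 3.95 in WT and 3.20, 2.43 and 2.75 in MCK-Musclin libraries (limma adjusted p = 0.229). The groups did not overlap for these 3 genes, as for 5.44% of all genes in that direction, while *Hmox1*, another target, had 51.1 FPKM on average in WT and 63.6 in MCK-Musclin mice. The median log2 change of the list was -0.15, against 0.06 over all genes tested.

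Glutathione synthesis and recycling had 3 of 8 genes lower in iWAT at an unadjusted p under 0.05 and 0 higher, against 3.44% and 13.1% of all genes, with a median log2 change of -0.12. *Gclm*, the regulatory subunit of the first enzyme of glutathione synthesis, had 3.94, 3.87 and 2.84 FPKM in WT and 2.94, 2.25 and 2.23 in MCK-Musclin libraries (limma adjusted p = 0.268). The other 2 were *Oplah*, 42.9 FPKM on average in WT and 33.7 in MCK-Musclin mice, and *Chac1*, an enzyme that degrades glutathione, with 1.70 and 0.755. *Gclc*, the catalytic subunit, had 9.12 and 9.46. *Txnrd2*, the mitochondrial thioredoxin reductase that serves *Prdx3*, was the 1 of 11 genes of its list at an unadjusted p under 0.05, with 8.65, 9.70 and 7.74 FPKM in WT and 7.98, 5.86 and 5.85 in MCK-Musclin libraries (log2 change -0.37 ± 0.14 SE, limma adjusted p = 0.273). *Mthfd2* was the 1 of 7 in NADPH supply, higher with 6.79 and 9.19 FPKM on average, and *Mtf1*, the metal-responsive transcription factor of the metallothionein genes, was the 1 of 8 in metal control, with 3.78, 3.13 and 2.74 in WT and 4.14, 3.97 and 4.91 in MCK-Musclin libraries (log2 change 0.34 ± 0.14 SE, limma adjusted p = 0.272). Neither the 7 other peroxidases tested nor the 8 genes of selenoprotein synthesis had a member at that p.

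In the list of superoxide and peroxide sources, 3 of 6 genes were higher in iWAT at an unadjusted p under 0.05, all of them subunits of the phagocyte NADPH oxidase. *Cybb* had 23.0, 18.7 and 18.7 FPKM in WT and 29.2, 24.5 and 30.04 in MCK-Musclin libraries (log2 change 0.45 ± 0.13 SE, limma adjusted p = 0.171). *Cyba* had 36.7, 37.2 and 32.8 in WT and 49.7, 48.5 and 47.6 in MCK-Musclin libraries (limma adjusted p = 0.143), and *Ncf1* had 28.1, 22.9 and 25.9 in WT and 38.6, 33.9 and 38.4 (limma adjusted p = 0.144). The groups did not overlap for any of the 3, as for 17.9% of all genes in that direction. Lymphocyte markers moved with them: all 6 B cell markers, 6 T cell markers and 5 lymph node stroma markers were higher at an unadjusted p under 0.05, where 13.1% of all genes tested were. The B cell markers summed to between 135 and 259 FPKM in WT and between 292 and 387 in MCK-Musclin libraries, the T cell markers to between 81.8 and 107 and between 148 and 153, and the lymph node markers to between 150 and 327 and between 347 and 564, with no marker at 0. Macrophage markers summed to between 180 and 198 in WT and between 175 and 254 in MCK-Musclin libraries, with 1 of 6 higher at that p. What these cells contribute to the oxidase genes was not tested.

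In BAT the same lists held few differences. *Prdx4*, a peroxidase of the endoplasmic reticulum, had 4.20, 3.49 and 2.77 FPKM in WT and 2.72, 2.48 and 1.97 in MCK-Musclin libraries. It was the 1 of 6 other peroxidases lower at an unadjusted p under 0.05, where 2.71% of all genes tested were. All 6 of them had lower values, as did 52.3% of all genes tested, with a median log2 change of -0.14. *Gsr*, glutathione reductase, was the 1 of 6 in its list, with 7.26, 7.62 and 7.67 in WT and 6.43, 6.13 and 5.77 in MCK-Musclin libraries (limma adjusted p = 0.968). *Gstm2* was the 1 of 10 around NRF2, with 24.7, 21.7 and 24.4 in WT and 16.7, 18.6 and 16.5 in MCK-Musclin libraries (log2 change -0.43 ± 0.10 SE, limma adjusted p = 0.929). *Mtf1* in BAT was lower and the 1 of 6 in metal control, with 4.45, 4.39 and 3.86 in WT and 3.28, 2.93 and 3.36 in MCK-Musclin libraries (log2 change -0.32 ± 0.11 SE, limma adjusted p = 0.968). *Selenow*, a selenoprotein abundant in muscle, was the 1 of 8 in its list, with 120, 112 and 113 in WT and 83.9, 91.3 and 98.996 in MCK-Musclin libraries. None of the 11 thioredoxin and glutaredoxin genes, 6 NADPH genes and 5 superoxide sources tested was called at that p, and *Nfe2l2* had 22.3 FPKM on average in WT and 22.1 in MCK-Musclin mice.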

How the data were processed

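Libraries of poly(A) RNA were sequenced by the authors, who used fastp and bowtie2 to clean the reads and HISAT2 2.1.0 to align them to mm10 (GRCm38) without strand, and deposited FPKM per gene, in 1 table for 7 tissues, 1 for BAT and 1 for iWAT. The study's methods name StringTie for the FPKM, whereas the processing notes of the deposit name Cuffdiff, so the tool is uncertain. The iWAT table also holds the authors' own comparison of the groups (fold changes, p-values and group means), which was not used. Repeated lines were dropped, 287 each from the BAT table and the 7-tissue table. Members and gene lists were chosen with earlier results of these data known, and no list is independent support. Named genes were the members, genes of the lists, the 3 genes with the highest correlation to each member, markers beside a result, and *Ostn*.

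Groups were compared within each table with limma 3.58.1 (eBayes with a trend, R 4.3.3) on log2(FPKM + 1), over genes whose FPKM averaged 1 or more over its 6 libraries, with Benjamini-Hochberg adjustment over all genes tested. A fold change on this scale understates that of genes with low FPKM. Intervals are 95% intervals of the moderated estimate. An exact two-sided permutation test of 3 libraries against 3 has 0.1 as its smallest p and was not used. The study states that RNA-Seq used biologically independent animals, while the labels only number the 3 libraries of a group. The p-values measure the spread between these libraries. The labels do not say whether same-numbered libraries are paired, and the main fits treated them as unpaired. Deviations from the group mean correlated between same-numbered libraries at 0.23, 0.06 and 0.11 in iWAT and at -0.10, -0.005 and 0.009 in BAT. These correlations were not tested and cannot exclude a pairing. Tissues with 1 library each were not tested. Positions, exons and coding sequences came from GENCODE (GRCm38), and promoters from RefSeq (GRCm38.p6), where 9 of the 10 members matched. Python 3.11.15, numpy 2.4.6, pandas 2.3.3 and matplotlib 3.10.9 were used. Read counts were not analysed here.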

Additional observations from a re-analysis of the deposited data

How the results depend on the processing

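No antioxidant or metallothionein gene passed an adjusted p of 0.05 under any alternative that was run, although 973 of all 12197 genes tested in iWAT (7.98%) did after centring on adipocyte markers and 86 of 12216 (0.704%) without WT library 1. The directions that turned were those of small changes. With median-ratio scaling the log2 change of *Sod3* in iWAT was -0.0031 and the difference between the tissues for *Sod1* was -0.077. Centring each library on the general adipocyte markers moved the median of all genes from 0.06 to 0.26 in iWAT and from -0.01 to 0.12 in BAT. It turned the log2 change in iWAT to 0.15 for *Sod1*, 0.088 for *Cat*, 0.17 for *Gpx1*, 0.090 for *Gpx4* and 0.10 for *Mt1*, with 0 members lower and 3 higher at an unadjusted p under 0.05, where 0.32% of all genes were lower and 33.6% higher. In BAT it gave 0.063 for *Sod1*, 0.089 for *Sod3*, 0.061 for *Cat* and 0.082 for *Gpx4*, with 0 members lower, where 0.514% of all genes were lower. Over the 7 tissues, rescaling to TPM left 3 members highest in brown adipose tissue, 2 in white adipose tissue and 2 in brain, and median-ratio scaling put 1 in heart. The cause of these moves was not tested.

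With the replicate number as a block, a pairing that the labels do not state, 1 member was lower and 1 higher in iWAT (*Gpx3*, unadjusted p = 0.0388 by limma). With that block, 3.92% of all genes tested in iWAT were lower and 12.1% higher at an unadjusted p under 0.05. Between the tissues 0 members differed with the block, where 10.1% of all genes did without it.

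Leaving out 1 library at a time gave, in iWAT, log2 changes from -0.28 to 0.048 for *Cat*, from -0.35 to 0.22 for *Gpx1* and from -0.20 to 0.069 for *Mt1*, and in BAT from -0.071 to 0.0098 for *Sod3*. The tissue difference ran from -0.035 to 0.037 for *Sod1*, from -0.21 to 0.11 for *Cat*, from -0.094 to 0.48 for *Gpx1*, from -1.02 to 0.14 for *Gpx3*, from -0.14 to 0.035 for *Gpx4* and from -0.18 to 0.039 for *Prdx3*. At an unadjusted p under 0.05, between 0 and 1 members were lower and between 0 and 1 higher in iWAT, between 1 and 2 lower and between 0 and 1 higher in BAT, and between 0 and 2 differed between the tissues. Of all genes tested, 2.26% to 4.04% were lower and 9.17% to 13.4% higher in iWAT in these fits. In BAT the shares were 2.37% to 2.90% lower and 1.70% to 2.73% higher. For the tissue difference the share was taken only with no library left out, at 10.1%. The log2 change of *Sod2* in iWAT stayed between -0.51 and -0.29, with unadjusted p from 0.0118 to 0.116, and that of *Mt1* in BAT between -0.49 and -0.34, with unadjusted p from 0.00627 to 0.0237 by limma. Low values and 1 library per tissue limit what can be said of *Mt2*.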
